A study of Mus musculus with 6 samples.

Results

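The 10 genes described here carry dietary fatty acid through the absorptive cell of the gut, from the membrane to the lipid droplet. They were taken by name from a list that covers uptake (Cd36, Slc27a4), binding in the cytosol (Fabp1, Fabp2), activation (Acsl5), triglyceride synthesis (Mogat2, Dgat1, Dgat2) and the coat of the lipid droplet (Plin2, Cidec). All 10 were measured, each by 1 probe set, among 19938 genes in all. RNA came from epithelial cells isolated from the mouse small intestine at E18.5 of embryonic development, shortly before birth. Of the 6 whole-transcript arrays, 3 are labelled control and 3 are labelled as a conditional knockout (cKO) of both Gata4 and Gata6, which encode zinc finger proteins that regulate genes of the developing gut. The sources used here do not give the Cre driver, the deleted exons, the alleles that the controls carry or the strain. Nothing states that each array holds RNA of a different animal, so the p-values cover only the variation among these 6 samples, and part of it may be technical.

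An enterocyte takes up the fatty acids and monoacylglycerol that pancreatic lipase releases in the lumen. Fatty acid binding proteins carry them through the cytosol, an acyl-CoA synthetase activates them, and acyltransferases at the endoplasmic reticulum rebuild triglyceride. MOGAT2 adds the next acyl chain to monoacylglycerol, and DGAT1 or DGAT2 then adds the last one to diacylglycerol. The product leaves the cell in chylomicrons or waits in cytosolic droplets coated by perilipins and CIDE proteins. At this age the gut has not yet met milk, and many genes of lipid absorption are switched on ahead of the first feed.

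Because GATA4 and GATA6 are DNA-binding proteins, the stretches before the start of transcription are shown for 3 of the 10 genes, and control of these genes by GATA factors was not tested. RefSeq promoter sequence (build GRCm38.p6) was matched for 7 of the 10 genes, in 8 windows, and not for Mogat2, Dgat1 and Dgat2. The 250 bases before the annotated start were searched on both strands. Fabp1 and Acsl5 are printed because their windows hold the letters GATAA or their reverse complement, in capitals below, and Fabp2 because it had the largest fall of the cytosolic binding proteins and holds none. All run 5′ to 3′ on the plus strand and end at the base before the start, on chr6:71199629-71199878 for Fabp1, chr19:55253119-55253368 for Acsl5 and chr3:122894822-122895071 for Fabp2.
Fabp1: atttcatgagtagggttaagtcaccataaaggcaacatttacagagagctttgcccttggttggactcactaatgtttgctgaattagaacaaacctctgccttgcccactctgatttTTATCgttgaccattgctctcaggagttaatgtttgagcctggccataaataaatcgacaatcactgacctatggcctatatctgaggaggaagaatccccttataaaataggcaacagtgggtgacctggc
Acsl5: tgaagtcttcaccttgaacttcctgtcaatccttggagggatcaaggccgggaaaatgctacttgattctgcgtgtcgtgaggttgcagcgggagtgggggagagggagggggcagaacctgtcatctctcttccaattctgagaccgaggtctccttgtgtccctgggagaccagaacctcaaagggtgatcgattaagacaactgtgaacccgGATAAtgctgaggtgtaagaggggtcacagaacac
Fabp2: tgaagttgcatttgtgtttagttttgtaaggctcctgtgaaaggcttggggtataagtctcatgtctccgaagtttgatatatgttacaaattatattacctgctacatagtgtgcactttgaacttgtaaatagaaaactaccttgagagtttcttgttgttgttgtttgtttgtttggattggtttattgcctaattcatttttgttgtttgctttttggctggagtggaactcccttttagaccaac

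The 5-letter GATAA was found in 2 of the 8 windows, those of Fabp1 and Acsl5, against 22.6% of all 32851 promoter windows. Of the 4 longer GATA words searched, which can overlap it, the word AGATAA was in 0 of the 8 windows, as were the word TGATAA and also the word AGATAG, while TGATAG was in 1, that of Plin2. Among all windows 26.5% held at least 1 of these 4 words. The CDX words TTTATG (10.8% of all windows) and TTTATT (18.1%) were each in 3 of the 8. Those with TTTATG were Fabp1, Slc27a4 and Cd36, and those with TTTATT were Fabp1, Fabp2 and Cidec. The HNF1 word GTTAAT (6.43% of all windows) and a TATA box, TATAAA (12.4%), were each in the Fabp1 window alone. A direct repeat of 2 copies of AGGTCA with 1 base between them, bound by PPAR and HNF4 receptors, was in 0 of the 8 and in 0.0335% of all windows. A match describes the letters of a short window, and no binding was measured here.

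Both targeted genes were higher in the group labelled cKO. Gata4 stood at 10.95, 10.93 and 10.96 on the control arrays and at 11.34, 11.39 and 11.51 on the arrays labelled cKO, on the deposited log2 scale. Gata6 stood at 12.23, 12.28 and 12.27 against 12.72, 12.69 and 12.72. The changes were 0.47 ± 0.075 and 0.45 ± 0.065 (SE, n = 3 arrays per group; limma with Benjamini-Hochberg adjustment over all genes, adjusted p = 0.0101 and 0.0067). A probe set of this design sums probes along a gene, so it does not check the loss of single exons, and the directions given here depend on the array labels. Over all genes tested, 1479 passed an adjusted p of 0.05 as lower on the arrays labelled cKO and 1101 as higher, which is 7.42% and 5.52% of all genes tested. The lower count was 975 without control 1, 853 without control 2, 844 without control 3 and 865 without cKO 3, and the higher count was 629 without control 2, 670 without control 3 and 722 without cKO 3.

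All 10 genes fell on the arrays labelled cKO. Each was below every control array on all 3 arrays labelled cKO, and each fell at least 2-fold. Plin2 was the exception under other settings, at −0.95 with quantile normalization and −0.99 without control 3 or without cKO 3, which made the 2-fold count 9. Against this, 7.42% of all genes were called lower, 18.3% had groups that did not overlap with cKO below, and 1.84% were called lower with a change of at least 2-fold. The 10 genes were chosen with earlier results of these data known, so setting them beside these shares describes them and is no independent test. These shares include dim genes, while each of the 10 was at or above the 80.5th percentile of mean level. With genes up to the median of mean level left out, 1561 of 9964 were called lower. The median change of the 10 was −1.70, beside −0.01 over all genes tested, and single changes ran from −2.75 for Cd36 to −1.03 for Plin2. Ordered by the size of the fall among 19938 genes, the 10 stood between 23rd (Cd36) and 384th (Plin2). The gap between the lowest control array and the highest array labelled cKO was 0.80 for Plin2, the narrowest, and 2.16 for Fabp2, the widest. In such bulk samples, fewer cells that express a gene and less RNA per cell cannot be told apart.

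**Figure D1:**
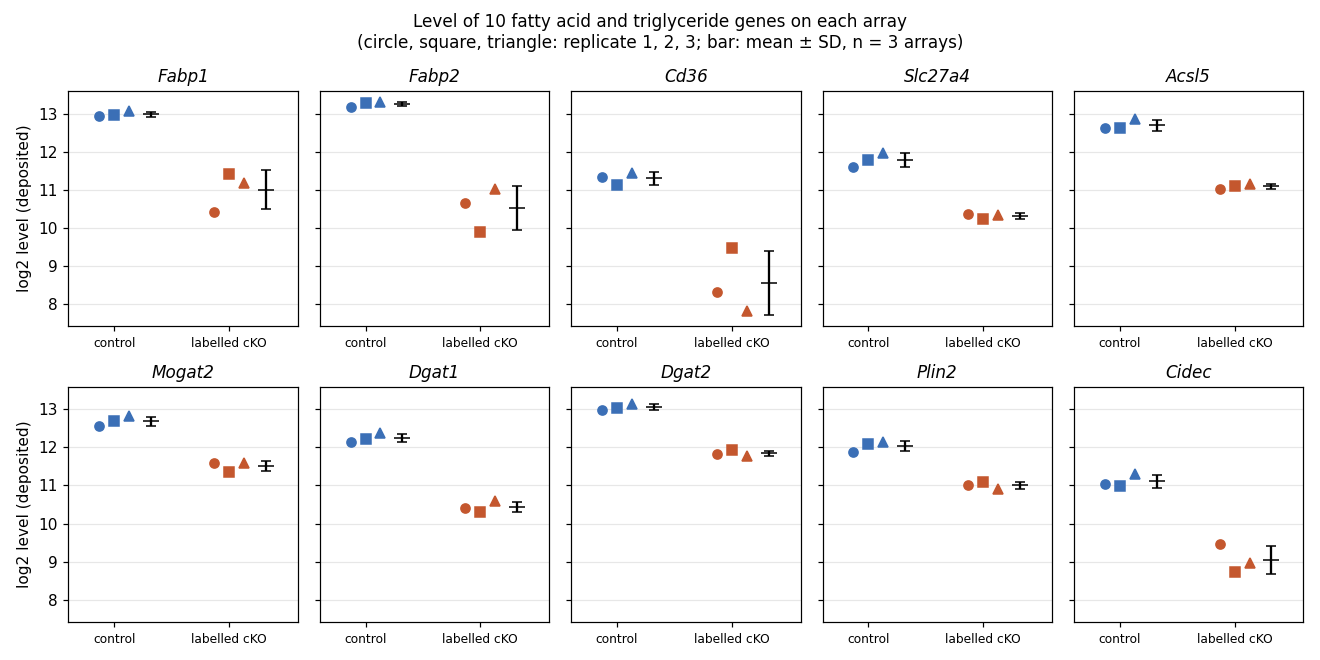
Deposited log2 level (y axis) of each of the 10 genes on the 3 control arrays (blue) and the 3 arrays labelled cKO (red), with the mean and SD of each group at its right. In every panel the red points lie below all blue points, and the red points spread most for Cd36, Fabp2, Fabp1 and Cidec.

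Of the uptake genes, Cd36 fell further than Slc27a4. Cd36 encodes a scavenger receptor that binds long-chain fatty acids at the brush border. Its log2 level was 11.33, 11.12 and 11.44 on the control arrays and 8.33, 9.47 and 7.83 on the arrays labelled cKO. The 2 sets lay far apart, but the arrays labelled cKO also differed from each other by more than a log2 unit. The change was −2.75 ± 0.39 (SE; 6.74-fold lower, limma adjusted p = 0.00666), and the level was 14.8% of control with a 95% interval of 7.68% to 28.6%. That interval overlaps the one of Fabp2 below (9.64% to 23.6%). The 2 deepest falls were not compared within arrays, so no order between them is given here. Slc27a4 encodes FATP4, a transport protein of the endoplasmic reticulum and brush border with acyl-CoA synthetase activity. It stood at 11.61, 11.77 and 11.97 on the control arrays and at 10.36, 10.23 and 10.34 on the arrays labelled cKO. These last 3 values lay within 0.13 of each other, and the change was −1.47 ± 0.11 (adjusted p = 0.000608), to 36.0% of control.

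Both cytosolic fatty acid binding proteins of the enterocyte fell as well. Fabp1, the liver-type protein, which the proximal gut also makes, stood at 12.93, 12.96 and 13.06 on the control arrays and at 10.42, 11.42 and 11.18 on the arrays labelled cKO. Fabp2, the intestinal type, stood at 13.18, 13.28 and 13.29 against 10.64, 9.90 and 11.02. The control arrays were close together for both genes (SD 0.068 and 0.061, n = 3), while the arrays labelled cKO had an SD of 0.52 and 0.57. Fabp1 changed by −1.98 ± 0.25 (adjusted p = 0.00408), to 25.4% of control, and Fabp2 by −2.73 ± 0.27 (adjusted p = 0.00163), to 15.1% of control. The arrays labelled cKO did not order the 2 genes alike: cKO 2 had the highest Fabp1 and the lowest Fabp2 of its group. The log2 difference Fabp1 minus Fabp2 was −0.25, −0.32 and −0.23 on the control arrays and −0.22, 1.52 and 0.16 on the arrays labelled cKO. This ratio was therefore higher on each array labelled cKO, by 0.75 on average, but cKO 1 (−0.22) and control 3 (−0.23) were nearly equal. An exact two-sided permutation test over the 6 arrays gave p = 0.10, the smallest that 3 against 3 can give (0.15 adjusted over the 3 ratios tested). Without cKO 2 the mean difference was 0.24, and without cKO 1 it was 1.11. The same permutation test gave p = 0.4 without control 1, 0.5 without control 2 and 0.3 without control 3.

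Acsl5, the acyl-CoA synthetase that activates fatty acids in the small intestine, had one of the tightest falls. Its level was 12.61, 12.61 and 12.85 on the control arrays and 11.03, 11.10 and 11.16 on the arrays labelled cKO. The change was −1.59 ± 0.094 (3.02-fold lower, limma adjusted p = 0.000318), to 33.1% of control (95% interval 28.3% to 38.8%).

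The 3 acyltransferases of triglyceride synthesis all fell. Mogat2, the monoacylglycerol acyltransferase, stood at 12.56, 12.68 and 12.81 on the control arrays and at 11.59, 11.36 and 11.60 on the arrays labelled cKO. It changed by −1.17 ± 0.10 (adjusted p = 0.0012) to 44.5% of control. Dgat1 stood at 12.15, 12.22 and 12.37 against 10.41, 10.31 and 10.59, a change of −1.81 ± 0.10 (adjusted p = 0.000283) to 28.5% of control. Dgat2, which is unrelated to Dgat1 in sequence and catalyses the same last step, stood at 12.99, 13.02 and 13.15 against 11.82, 11.92 and 11.78, a change of −1.21 ± 0.081 (adjusted p = 0.000453) to 43.1% of control. All 3 sets of arrays labelled cKO were compact and far below their controls.

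Dgat1 lay further below Dgat2 on each array labelled cKO than on any control array. The log2 difference Dgat1 minus Dgat2 was −0.84, −0.80 and −0.78 on the control arrays and −1.41, −1.61 and −1.19 on the arrays labelled cKO, so the groups did not overlap. It was lower by 0.60 on average (exact two-sided permutation test, p = 0.10, the smallest possible; 0.15 adjusted over the 3 ratios). For Mogat2 minus Dgat2 the groups overlapped, at −0.43, −0.34 and −0.34 on the control arrays and −0.23, −0.56 and −0.18 on the arrays labelled cKO. Its mean difference was 0.05 (exact permutation p = 0.80, adjusted 0.80), with values from −0.025 to 0.17 when 1 array was left out. This does not show that the 2 genes fell alike. Mogat2 and Dgat2 are next to each other in the RefSeq annotation, with 0 annotated genes between them.

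The 2 droplet protein genes fell by different amounts. Plin2, the perilipin that coats droplets in most cells and is stabilised by stored lipid, had the smallest fall of the 10. It stood at 11.89, 12.09 and 12.13 on the control arrays and at 11.01, 11.09 and 10.91 on the arrays labelled cKO. It changed by −1.03 ± 0.095 (adjusted p = 0.00132) to 48.9% of control. Cidec, which promotes growth of droplets by lipid transfer, stood at 11.05, 10.98 and 11.31 against 9.46, 8.74 and 8.96. Its change of −2.06 ± 0.20 (4.17-fold lower, adjusted p = 0.00145) left it at 24.0% of control, and the 95% intervals of the 2 changes did not overlap (−2.53 to −1.59 for Cidec, −1.26 to −0.80 for Plin2).

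The arrays of a group did not vary alike for all 10 genes. On the control arrays all 10 were highest on control 3, 7 were lowest on control 1, 2 (Cd36 and Cidec) on control 2, and Acsl5 was tied between those 2 arrays, yet the SD over the controls was at most 0.18. On the arrays labelled cKO, 6 genes had an SD below 0.15 (Slc27a4, Acsl5, Mogat2, Dgat1, Dgat2 and Plin2) and 4 an SD above 0.3 (Cd36, Fabp2, Fabp1 and Cidec). These last 4 did not share a direction: on cKO 2, Cd36 was 0.93 and Fabp1 was 0.41 above the mean of the group, while Fabp2 was 0.62 and Cidec 0.31 below it on the log2 scale (deviations of −0.62 and −0.31). Averaged over the 10 genes the 3 arrays labelled cKO differed little, at 10.51, 10.55 and 10.54, beside 12.23, 12.27 and 12.44 on the controls.

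Markers of other cells moved with some of these deviations. The 12 markers of intestinal epithelium averaged 11.86 to 11.88 on the control arrays and 12.01 to 12.16 on the arrays labelled cKO, with 4 of 12 called higher and 0 lower by limma (0 lower at an unadjusted p of 0.05). Of all genes, 5.52% were called higher and 7.42% lower. Among the epithelial markers Epcam, an adhesion protein of epithelia, stood at 12.12 to 12.19 and 12.39 to 12.55. The microvillus protein gene Vil1 stood at 12.23 to 12.37 on the controls and at 12.04 to 12.32 on the arrays labelled cKO. The 12 hepatocyte markers averaged 12.81 on cKO 2 and 11.06 on control 3, against 8.16 to 9.65 on the other 4 arrays. Alb, the albumin gene, stood at 13.66 and 13.19 on those 2 arrays and at 6.56 to 12.04 elsewhere, and Afp, alpha-fetoprotein, at 12.91 and 11.87 against 9.06 to 11.08. The endothelial and immune lists, with 8 markers each, were also highest on cKO 2 (8.44 and 9.63), while the other arrays reached 7.92 and 8.48 at most. Their defining genes Pecam1 and Ptprc stood at 8.38 and 8.07 there, against at most 8.04 and 7.16 elsewhere.

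Liver, endothelium and macrophages express several of the 10 genes, among them Fabp1 and Cd36, and the part of such cells in the deviations on cKO 2 was not tested. The 5 measured adipocyte markers (of 7 listed) averaged 7.05 to 7.07 on the controls and 6.76 to 6.99 on the arrays labelled cKO, with Adipoq at 6.18 to 6.95 over all arrays. In the other lists, 5 erythroid markers (of 8 listed) averaged 7.61 to 8.72 on the controls and 7.30 to 10.05 on the arrays labelled cKO, and 8 mesenchymal markers 8.16 to 8.50 and 8.52 to 9.39. Col1a1, a collagen gene of that list, stood at 8.28 to 8.60 and 8.71 to 9.38. The 6 measured markers of exocrine pancreas (of 8 listed) averaged 10.40, 8.80 and 7.52 on control 1, 2 and 3, and 9.22 to 10.22 on the arrays labelled cKO. They were thus lowest on control 3, where all 10 genes were highest, and the part of such cells in the control deviations was not tested. None of the defining markers named here was at 0. Of the 8 mesenchymal markers 5 had groups that did not overlap with cKO above, and at an unadjusted p of 0.05 limma placed 5 higher and 1 lower. Over all 19938 genes, 2851 did not overlap with cKO above, and at that unadjusted p limma placed 2290 higher and 3004 lower. The widest differences of the mesenchymal markers were 1.85 for Dcn and 1.73 for Acta2 (limma adjusted p = 0.058 and 0.0588, named after their values were seen). Their part in the results for the 10 genes was not tested. Of these 7 lists of other cells, limma called 1 gene at the adjusted threshold, Csf1r of the immune list (−2.22, adjusted p = 0.0148, named after its value was seen).

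**Figure D2:**
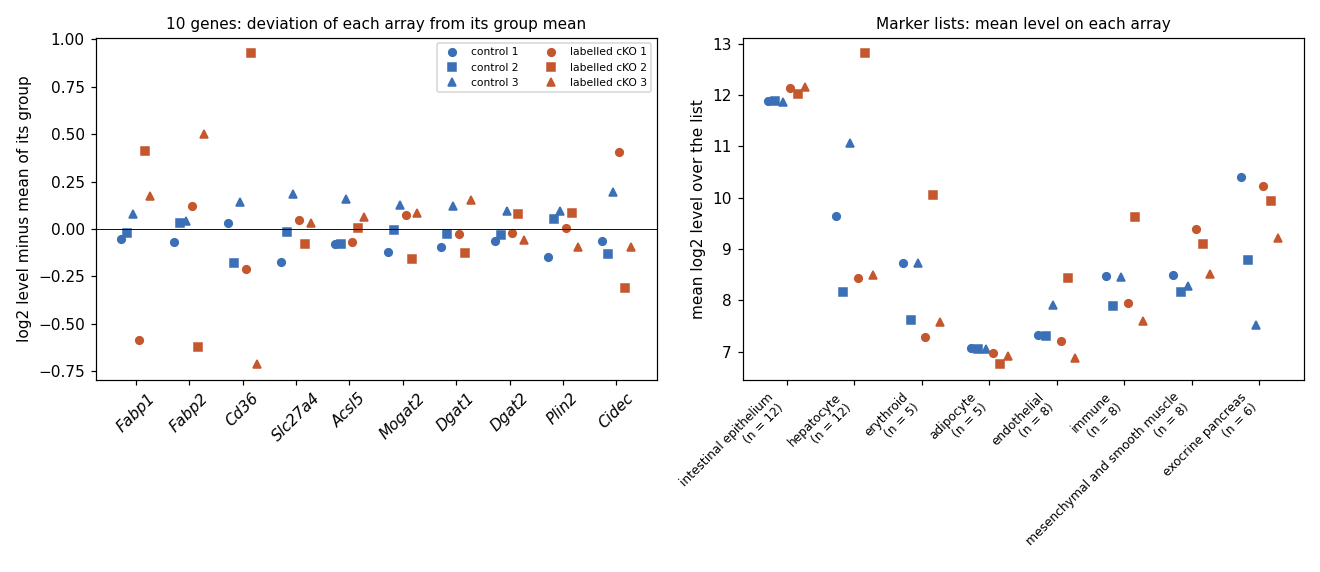
Left, the log2 level of each of the 10 genes on each array minus the mean of its group; right, the mean log2 level of 8 marker lists on each array (circle, square and triangle are replicates 1, 2 and 3; blue control, red labelled cKO). On cKO 2 the hepatocyte list is at 12.81, and Cd36 and Fabp1 lie above, Fabp2 and Cidec below, the mean of their group.

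The falls did not rest on a single array. With each of the 6 arrays left out in turn, all 10 genes still passed, with adjusted p up to 0.0348 (Cd36 without control 3). Leaving out both control 3 and cKO 2 kept all 10 calls, and the median change was −1.60. In that fit Cd36 changed by −3.15, Fabp1 by −2.15, Fabp2 by −2.40 and Cidec by −1.81 (limma adjusted p of 0.0025, 0.012, 0.00276 and 0.00771). With the mean of the hepatocyte list as a covariate on all 6 arrays, the median change was again −1.70 and all 10 passed. That mean stood at 9.65, 8.16 and 11.06 on the control arrays and at 8.44, 12.81 and 8.49 on the arrays labelled cKO. Because it did not separate the groups, this fit could move the changes little, and the part of other cells in the falls was not tested.

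**Figure D3:**
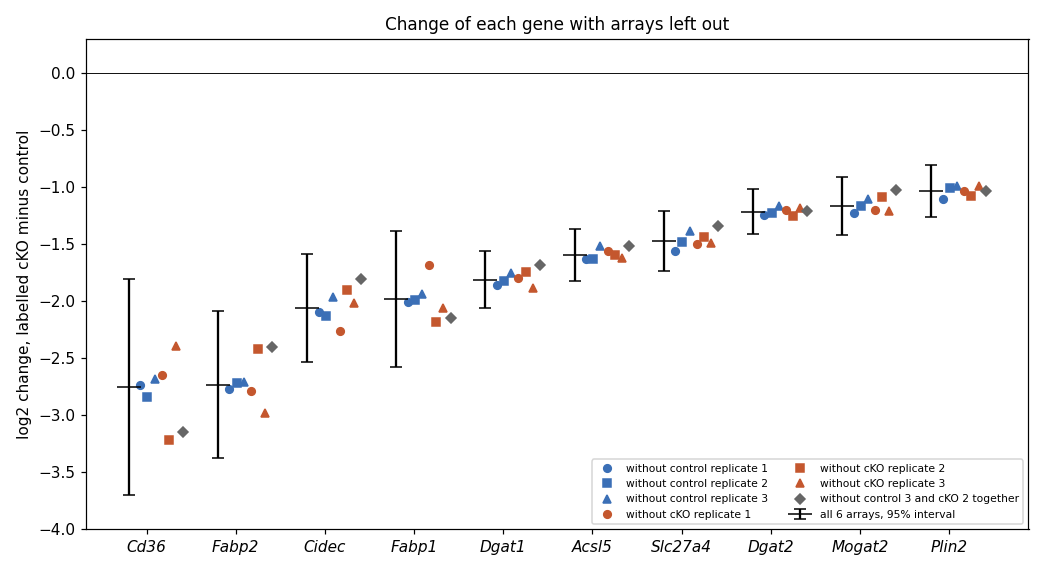
Log2 change of each of the 10 genes (labelled cKO minus control; y axis) with all 6 arrays and its 95% interval (black), and with 1 array or both control 3 and cKO 2 left out (symbols). The highest symbol is at −0.99 (Plin2 without control 3 or cKO 3), and those of Cd36 range from −3.22 without cKO 2 to −2.40 without cKO 3.

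In the 8 lists of related genes that follow, 19 of 99 measured genes fell (19.2%) and 6 rose (6.06%), beside 7.42% and 5.52% of all genes. These lists too were chosen with earlier results of these data known, so the shares only describe them. The 19 became 11 without control 2 and 12 without control 3. Of 8 other fatty acid binding protein genes, 1 rose and 0 fell (0 also at an unadjusted p of 0.05), with a median change of 0.16. The rise was that of Fabp6, the ileal bile acid binding protein, which stood at 7.31, 7.50 and 6.93 on the control arrays and at 12.12, 12.36 and 12.37 on the arrays labelled cKO. Its change of 5.04 ± 0.16 (32.8-fold, limma adjusted p = 6.53e-05) ran opposite to those of Fabp1 and Fabp2. Fabp5, the epidermal type, varied widely, at 8.38, 8.39 and 9.69 against 7.82, 11.72 and 7.69, and did not pass (0.26 ± 1.10, adjusted p = 0.915). Without both control 3 and cKO 2 its change was −0.63 (adjusted p = 0.0268). Fabp3 (0.10), Fabp4 (0.16), Fabp7 (−0.15), Fabp9 (0.28), Fabp12 (0.08) and Pmp2 (0.15), which belong to heart, fat, brain, testis and myelin among other tissues, had adjusted p of 0.118 to 0.869. By mean level these genes stood between the 6.08th (Pmp2) and the 28.4th (Fabp7) percentile of all genes, where a fall could hardly show. Fabp1 and Fabp2 stood at the 98.3rd and 98.0th percentile.

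Among 12 other genes of fatty acid entry, sensing and activation, 2 rose and 1 fell, with a median of −0.02. A further 2 of this list, Acsl1 and Acsl3, were not analysed here. Acsl4, a synthetase that prefers arachidonic acid, stood at 7.96, 7.94 and 8.02 on the control arrays and at 9.44, 9.58 and 9.38 on the arrays labelled cKO. It rose by 1.49 ± 0.081 (2.82-fold, adjusted p = 0.000229), where its relative Acsl5 fell. Ffar4, a receptor for long-chain fatty acids, rose by 1.25 ± 0.10 (adjusted p = 0.000844). Dbi, the acyl-CoA binding protein, fell by 0.35 on the log2 scale (adjusted p = 0.0365), a call lost with any 1 array left out (adjusted p of 0.0613 to 0.116) and with quantile normalization (0.10).

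The list of other acyltransferases and phosphatases of glycerolipid synthesis held the enzymes that start from glycerol-3-phosphate and relatives of Mogat2 and Dgat2, among them Mogat1, Awat1, Awat2 and Dgat2l6. Of its 20 genes 2 fell and 1 rose, beside 7.42% and 5.52% of all genes, with a median of −0.19. Agpat3, a lysophospholipid acyltransferase, stood at 11.85, 11.97 and 12.08 on the control arrays and at 10.81, 10.97 and 10.66 on the arrays labelled cKO. It changed by −1.15 ± 0.11 (limma adjusted p = 0.0014). The glycerol-3-phosphate acyltransferase genes Gpat3 and Gpat4 moved in opposite directions. Gpat3 stood at 9.51, 9.73 and 9.92 against 9.10, 8.87 and 8.75, a change of −0.81 ± 0.14 (adjusted p = 0.0126; 0.0542 without control 2). Gpat4 stood at 9.78, 9.81 and 9.75 against 10.23, 10.40 and 10.42, a change of 0.57 ± 0.08 (adjusted p = 0.00619). The groups did not overlap for either gene. The lower count of this list was 6 without cKO 2 and 1 without control 2.

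Other droplet and lipolysis genes changed in part. Of 13 genes of the droplet coat and its assembly 3 fell and 0 rose under limma (1 higher at an unadjusted p of 0.05; 1 listed gene not analysed here), with a median of −0.14. Plin3, another perilipin, stood at 12.18, 12.23 and 12.34 on the control arrays and at 11.16, 10.81 and 10.98 on the arrays labelled cKO (−1.27 ± 0.11, adjusted p = 0.001). Hsd17b11, a droplet-bound dehydrogenase, changed by −0.76 ± 0.074 and Cideb, the CIDE protein of liver and gut, by −0.48 ± 0.074 (adjusted p = 0.00161 and 0.00887). Plin1, the perilipin of fat cells, changed by −0.05 (adjusted p = 0.754). Of 9 genes of triglyceride lipolysis 2 fell and 1 rose, with a median of −0.30. Lipe, hormone-sensitive lipase, changed by −1.10 ± 0.15 (adjusted p = 0.00573), and Abhd6, a monoacylglycerol lipase, by 0.76 ± 0.094 (adjusted p = 0.00384). Lipa, lysosomal acid lipase, fell by 0.72 (adjusted p = 0.0311; 0.0585 to 0.111 without any 1 control array). That list's lower count was 1 without any 1 control array.

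**Figure D4:**
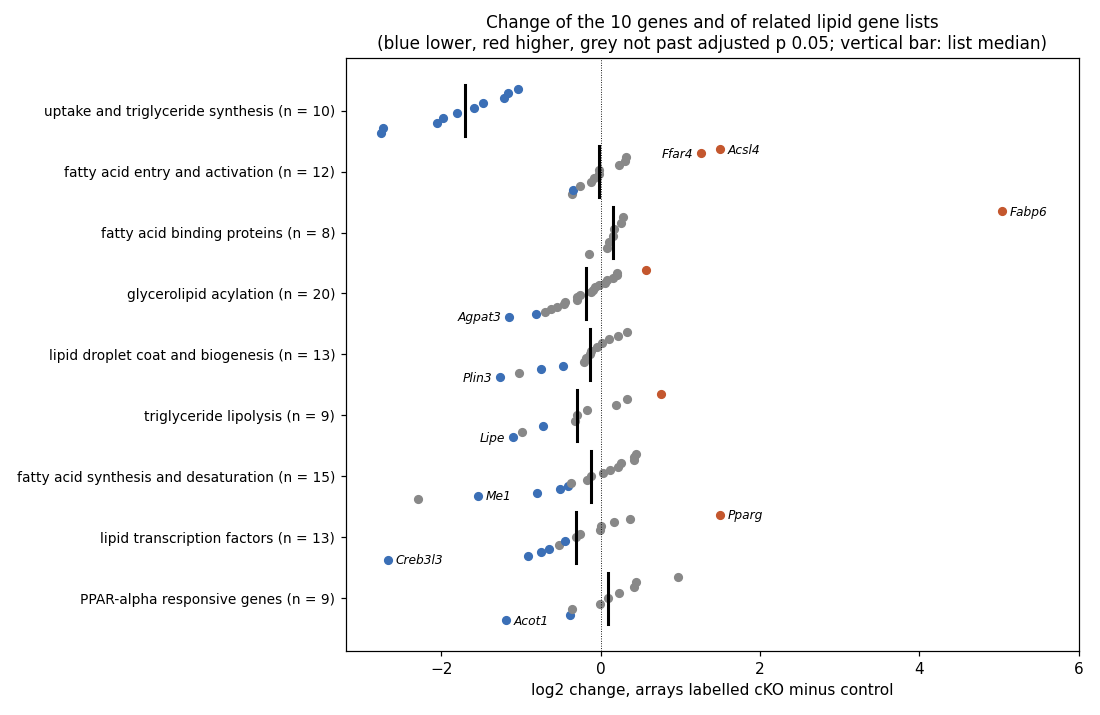
Log2 change (x axis, labelled cKO minus control) of each measured gene in the set of 10 and in 8 related lists (y axis), coloured by the limma call, with the list median as a vertical bar. The 10 genes lie between −2.75 and −1.03, while the medians of the 8 lists lie between −0.31 and 0.16.

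Of 15 genes that build, elongate or desaturate fatty acids 4 fell and 0 rose under limma (5 higher at an unadjusted p of 0.05), beside 7.42% and 5.52% of all genes, with a median of −0.12. Me1, malic enzyme, which supplies NADPH, stood at 10.74, 10.63 and 10.81 on the control arrays and at 8.98, 9.25 and 9.33 on the arrays labelled cKO (−1.54 ± 0.11, adjusted p = 0.000601). The elongase gene Elovl1 changed by −0.51 ± 0.076 (adjusted p = 0.00781), and the desaturase genes Fads1 and Fads2 by −0.81 ± 0.14 and −0.41 ± 0.07 (adjusted p = 0.0143 and 0.0122). The Fads1 call was lost without control 2 (0.0597) or cKO 3 (0.0533), and that of Fads2 without control 2 (0.0556) or control 3 (0.0511) or with quantile normalization (0.069). The list's lower count was 2 without control 2, and 1 of its genes passed as higher without cKO 2.

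Of 13 transcription factors and coactivators of lipid metabolism 5 fell and 1 rose, with a median of −0.31 (2 others of the list were not analysed here). Creb3l3, a membrane-bound factor of liver and gut lipid genes, stood at 11.76, 11.70 and 11.85 on the control arrays and at 9.09, 9.36 and 8.85 on the arrays labelled cKO (−2.67 ± 0.14, adjusted p = 0.000206). Mlxipl, the carbohydrate response factor ChREBP, fell by 0.92 ± 0.12 (adjusted p = 0.00418). Pparg, the receptor that drives fat cell genes such as Cidec, rose, from 9.09, 8.94 and 9.38 to 10.77, 10.42 and 10.71 (1.50 ± 0.15, adjusted p = 0.00163). Its groups did not overlap, and its direction was opposite to that of Cidec. Hnf4a, an identity factor of the gut, stood at 12.54 and 12.55 on average and Ppara, the receptor that responds to fatty acids, changed by −0.31 (adjusted p = 0.968 and 0.581). These last 2 were named after their values were seen.

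The other 3 falls of this list kept their direction but lost their calls when certain single arrays were left out. They were Ppargc1a, a coactivator (−0.65, adjusted p = 0.02; 0.0721 without control 1, 0.0782 without control 3 and 0.0725 without cKO 3), and Nr1h3 and Hnf4g, named after their values were seen. Nr1h3, the sterol receptor LXR alpha, changed by −0.75 (adjusted p = 0.0335) and kept its call without cKO 2 only. Hnf4g, a relative of Hnf4a, changed by −0.45 (adjusted p = 0.0314) and kept its call without cKO 1 only, and the largest adjusted p of the 2 with 1 array left out were 0.115 and 0.109. Leaving out control 1 or control 2 gave a lower count of 3 for this list, and leaving out control 3 or cKO 3 gave 2. The higher count was 2 without cKO 2. Of 9 measured genes known to respond to PPAR alpha, 2 fell and 0 rose (0 also at an unadjusted p of 0.05; 2 not analysed here), with a median of 0.10. They were Acot1, an acyl-CoA thioesterase (−1.19 ± 0.13, adjusted p = 0.00261), and Cpt1a, which admits fatty acids to mitochondria (−0.39, adjusted p = 0.0193). The Cpt1a call was lost with any 1 array but cKO 2 left out (up to 0.0764), and the lower count was then 1 in each case and 3 without cKO 2.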

How the data were processed

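Per the labels' protocols, RNA was purified with a Qiagen RNeasy Mini kit, and biotin was added by a whole-transcript sense method for Affymetrix Mouse Gene 1.0 arrays. The authors made the deposited log2 values, 1 per probe set and array (35512 probe sets, 6 arrays), with dChip, per the series text. The sources used here do not give its version, background correction, normalization or model. The log2 scale was read from the range of 0 to 14.25, since no label states the log base, and centring is unknown (array medians 7.73 to 7.84). No detection calls were used, so low levels can hide larger changes.

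Probe sets with 1 gene symbol in the platform annotation were kept (21789; 1621 had several and 12102 none), and for a gene with several the one with the highest mean, which left 19938 genes. Of these probe sets 21698 matched RefSeq GRCm38.p6 by gene ID. The groups were compared with limma 3.58.1 under R 4.3.3 (lmFit, eBayes, two-sided), without covariates or a filter, and with Benjamini-Hochberg adjustment over all genes at 0.05. Ratios between 2 genes were compared by exact permutation over arrays. The 10 genes, the 8 lipid lists, the 8 marker lists and the alternatives were chosen with earlier results of these data known. Named genes are Gata4, Gata6, the 10 genes, all other fatty acid binding protein genes, up to 4 called genes of each other lipid list with the smallest adjusted p, and the defining markers. Others, marked as such, and Plin1 were picked with their values in view. No 2 arrays held the same values. The fit was tested on simulated data. Alternatives were quantile normalization, median centring, log2(value + 32), removal of the dimmest genes at either of 2 limits, eBayes with a trend and robust variances, array weights, a replicate block, other uses of several probe sets, arrays left out, and the hepatocyte list as a covariate.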

Additional observations from a re-analysis of the deposited data

How the results depend on the processing

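Each of the 10 genes was called lower under all 18 alternatives. Over all genes tested, 827 were called lower and 622 higher with the replicate block, against 1479 and 1101, and 878 and 708 without control 3 and cKO 2 together. With 1 array left out these counts ran from 844 to 1322 and from 629 to 959. Over the 8 lipid lists 19 genes were called lower, 11 with the replicate block and 11 to 26 with 1 array left out. Deviations from the group means correlated across genes at −0.02, −0.42 and −0.18 between the arrays of replicate numbers 1, 2 and 3. With 3 arrays per group these values cannot show whether equal numbers mark paired samples. The Mogat2 minus Dgat2 ratio changed by 0.00 to 0.17 with 1 array left out, but by −0.025 without cKO 3. Fabp5 reversed to −0.63 without control 3 and cKO 2 together. Quantile normalization ended the calls of Dbi (adjusted p = 0.10), Cpt1a (0.0516), Fads2 (0.069) and Hnf4g (0.0957). Leaving out control 3 and cKO 2 together ended those of Cideb, Elovl1, Gpat3, Gpat4, Lipa, Ppargc1a, Cpt1a, Dbi, Fads2 and Hnf4g, and those of Gata4 (adjusted p = 0.0646) and Gata6 (0.0503). The causes were not tested. The number of arrays limits precision.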

Other observations

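Several further lipid genes passed the threshold once cKO 2, the array with the highest hepatocyte markers, was left out; they were named after their values were seen. Scd1, the stearoyl-CoA desaturase, stood at 10.73, 11.07 and 11.87 on the control arrays and at 8.04, 10.74 and 8.02 on the arrays labelled cKO. Its change was −2.29 (limma adjusted p = 0.112) with all arrays and −3.19 (adjusted p = 0.00231) without cKO 2. Hsd17b13, a droplet protein of liver, changed by −1.02 (adjusted p = 0.107) and by −1.44 (adjusted p = 0.000848). Gpam, the mitochondrial glycerol-3-phosphate acyltransferase, changed by −0.70 (adjusted p = 0.178) and by −1.01 (adjusted p = 0.0111). Lpin1, a phosphatidate phosphatase, changed by −0.45 (adjusted p = 0.662) and by −1.11 (adjusted p = 0.0223), and Ppara by −0.31 (adjusted p = 0.581) and by −0.68 (adjusted p = 0.00858). Each of these genes had its highest level among the arrays labelled cKO on cKO 2, so leaving that array out had to lower the mean of the group.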
